A study of Mus musculus with 9 samples.

Results

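The 10 genes described here encode the Notch receptors Notch1, Notch2 and Notch3, the ligands Jag1, Jag2, Dll1 and Dll4, and the target transcription factors Hes1, Hey1 and Heyl. They were taken from the deposited expression files by gene symbol alone, 10 of 23332 gene rows, and each symbol stood in one row. The cells were FVB MOE cells, which are clonal and were derived from the secretory epithelium of the oviduct of FVB mice, and their RNA was sequenced. The line was maintained in medium that contains 17β-estradiol. All 3 groups of 3 samples were kept in hormone-stripped medium for 48 h beforehand. They then received, for 24 h, the solvent DMSO at 0.1%, 17β-estradiol (E2) at 1 nM, or 4-hydroxytamoxifen (4OHT), a selective estrogen receptor modulator, at 100 nM in DMSO. Samples carry replicate numbers 1 to 3, with one sample of each treatment per number. The labels do not say whether the replicates came from separate cultures, so p-values measure only the spread between these samples, which may be technical. The comparisons ask whether E2 or 4OHT changed expression in this cell type.

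Notch receptors are single-pass membrane proteins that are activated by ligands on a neighbouring cell. Ligand binding exposes the receptor to an ADAM protease and then to gamma-secretase, and the freed intracellular domain enters the nucleus, where it joins the DNA-binding protein RBPJ and a Mastermind coactivator and turns on genes of the Hes and Hey families. Fringe enzymes add sugars to the receptor and change which ligand it answers to. In epithelia, Notch signaling is known for its part in choosing between secretory and ciliated cell fates.

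The values are FPKM, in which a gene's fragments are divided by transcript length and by the sample's mapped total, so that levels can be compared between genes. The depth, estimated from the step that a single read makes in the FPKM of low genes, was about 42.0 to 49.6 M reads in DMSO, 35.2 to 44.7 in E2 and 34.5 to 38.8 in 4OHT. These figures estimate the total behind the FPKM, and the authors list a higher number of sequenced reads for each sample. Each 4OHT sample was shallower than each DMSO sample, so depth and that treatment cannot be told apart. The epithelial identity on the label was checked against markers. Pax8, a Müllerian lineage factor, stood at 105 to 150 FPKM and Krt8 at 334 to 623, whereas the epithelial junction genes Epcam and Cdh1 were at or below 0.422 in each sample and the mesenchymal Vim was at 1641 or more. The endothelial markers Pecam1, Cdh5, Tie1 and Tek were at or below 0.100 FPKM in each sample and the leukocyte marker Cd3e was listed at 0. The summed level of the 5 endothelial markers was 0.638 to 0.837 in DMSO, 1.18 to 1.42 in E2 and 0.722 to 0.870 in 4OHT, most of it Kdr. The 4 ciliated-cell markers present, among them Foxj1 at 8.95 to 15.9 FPKM, summed to 18.0 to 20.6 in DMSO, 13.8 to 17.7 in E2 and 18.4 to 20.5 in 4OHT, and the 7 secretory markers to 1260 to 1391, 2154 to 2319 and 1341 to 1487. The secretory sum rested mostly on the keratins Krt7 (222 to 927 FPKM over all samples), Krt18 (428 to 799) and Krt8. The secretory marker Ovgp1 was at 1.44 to 2.61. The sums of the 6 stromal markers (1643 to 2054 over all samples), the 4 smooth muscle markers (1270 to 2571) and the 4 leukocyte markers (3.03 to 4.05) rested on Vim, on Acta2 and Tagln, and on Cd68. The part of these marker differences in the results on the Notch genes was not tested.

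On mm10, Notch1 lies on chromosome 2 at 26457903 to 26516663 (minus strand), Notch2 on chromosome 3 at 98013527 to 98150361 (plus) and Notch3 on chromosome 17 at 32120820 to 32166852 (minus). Jag1 lies on chromosome 2 at 137081456 to 137116644 (minus), Jag2 on chromosome 12 at 112907819 to 112929776 (minus), Dll1 on chromosome 17 at 15367354 to 15376872 (minus) and Dll4 on chromosome 2 at 119325784 to 119335962 (plus). Hes1 lies on chromosome 16 at 30064384 to 30067796 (plus), Hey1 on chromosome 3 at 8663359 to 8667256 (minus) and Heyl on chromosome 4 at 123233556 to 123249875 (plus). In the GENCODE annotation, exons of Notch1, Notch3, Dll1 and Dll4 overlap exons of opposite-strand noncoding genes, and Notch2 overlaps an unclassified gene on its own strand. The libraries were directional, but whether the counting used strand is not stated, so reads in the opposite-strand overlaps cannot be assigned to one gene. For Notch2, strand cannot separate its reads from those of the overlapping gene.

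Promoter sequence is shown for Notch1, the receptor called in E2 versus DMSO with the replicate block. It is also shown for Notch2, the most abundant receptor, and for Jag1, the most abundant ligand. Hes1, the other member called in that comparison, had no promoter window. Each stretch holds the bases of the gene's RefSeq window on GRCm38.p6 up to the first GENCODE exon of that gene met within the window, on the gene's strand, 5′ to 3′. The Notch2 and Jag1 stretches lie upstream of the whole annotated gene, whereas the Notch1 stretch lies inside the gene's annotated span, downstream of its most upstream annotated start. Notch1 is chr2:26503825-26504072 (minus), Notch2 is chr3:98013288-98013526 (plus) and Jag1 is chr2:137116645-137116770 (minus). Capitals mark the GC box GGGCGG, or CCGCCC on the other strand, the letters bound by SP1, through which the estrogen receptor is known to act at some promoters.
Notch1: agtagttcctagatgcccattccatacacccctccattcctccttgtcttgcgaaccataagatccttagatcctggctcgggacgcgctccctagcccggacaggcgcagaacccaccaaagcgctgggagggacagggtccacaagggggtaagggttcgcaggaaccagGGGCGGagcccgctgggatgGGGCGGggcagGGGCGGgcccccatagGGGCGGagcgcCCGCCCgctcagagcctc
Notch2: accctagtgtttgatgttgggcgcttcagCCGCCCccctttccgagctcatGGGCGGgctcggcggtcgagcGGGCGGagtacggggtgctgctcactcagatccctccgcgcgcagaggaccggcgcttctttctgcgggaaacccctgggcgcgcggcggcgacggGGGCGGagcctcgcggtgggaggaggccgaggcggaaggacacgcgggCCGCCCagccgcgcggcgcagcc
Jag1: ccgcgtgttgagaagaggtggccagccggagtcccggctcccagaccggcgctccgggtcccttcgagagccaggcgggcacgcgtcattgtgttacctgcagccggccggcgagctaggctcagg
Notch1 and Notch2 each had 5 GC boxes in the printed stretch, and Jag1 had 0. Promoter windows of 300 bases were found for 7 of the 10 genes (8 windows). None was available for the targets Hes1, Hey1 and Heyl, so no motif was searched at their promoters. Over the whole windows the GC box occurred 5 times in Notch1, 7 in Notch2, 4 in Notch3, 5 in Jag2, 2 in Dll4 and 0 in Jag1 and Dll1. Of all 32851 windows, 35.7% held at least one. The 8 windows were 55.7% to 86.0% G and C, against a median of 52.7% over all windows. The background share is thus not matched for base content. The RBPJ core TGGGAA, the E-box CACGTG bound by Hey proteins, and the palindromic estrogen response element were searched on both strands and were in none of the 8 windows, and they were in 25.6%, 7.15% and 0.07% of all windows. A single arm of that element, AGGTCA, searched on both strands, was in one Dll1 window, 109 bases before that window's start, and in 16.3% of all windows. That Dll1 window lies inside the gene's annotated span, and the site falls past the beginning of an annotated Dll1 exon.

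The 10 genes spanned a wide range of levels, and one gene dominated each role. Notch2 was the leading receptor, Jag1 the leading ligand and Hes1 the leading target. Averaged over the 9 samples, Hes1 stood at 52.4 FPKM, above 92.4% of all gene rows, Jag1 at 41.4 and Notch2 at 17.3. Dll4 and Notch1 followed at 1.77 and 1.71, and Jag2 (0.322), Notch3 (0.290) and Dll1 (0.118) lay below 1 FPKM in each sample. In DMSO and in 4OHT the ranges of Hes1 and Jag1 overlapped, and in E2 they did not. Dll4 and Notch1 overlapped in all 3 groups, and Jag2 and Notch3 overlapped in DMSO and 4OHT. The other neighbours in the order did not overlap within any group, apart from Hey1 and Heyl at the bottom.

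**Figure D1:**
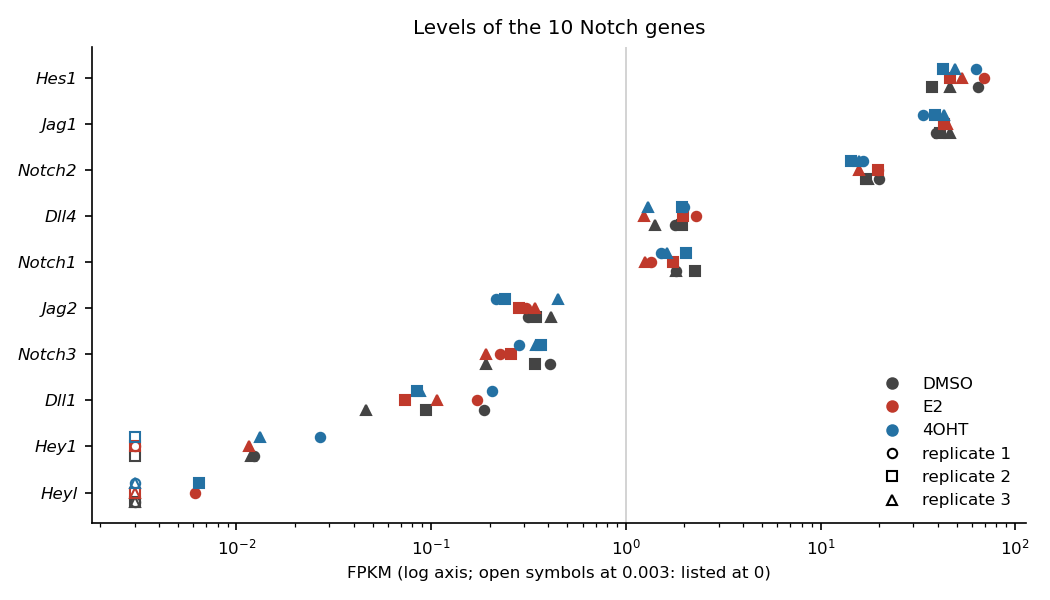
FPKM of the 10 Notch genes on a log axis, one symbol per sample, coloured by treatment and shaped by replicate number, with genes ordered by their mean. Hes1, Jag1 and Notch2 sit above 10 FPKM, Dll4 and Notch1 just above the line at 1, and the rest below it, with open symbols for Hey1 and Heyl samples listed at 0.

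Within a sample, Notch2 exceeded Notch1 by 7.50 to 10.9 times in DMSO, 11.3 to 14.5 times in E2 and 7.03 to 10.8 times in 4OHT. The E2 ratios did not overlap those of the other groups. Notch2 exceeded Notch3 by 39.2 to 91.5 times over all samples. Jag1 exceeded Jag2 by 96.5 to 162 times and Dll4 by 16.8 to 36.0 times.

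The approximate number of reads behind each gene depended on its FPKM, its transcript length and the depth. Jag1 rested on about 7256 to 11402 reads per sample, Notch2 on 5181 to 8878, Hes1 on 2152 to 3959, Notch1 on 451 to 1070 and Dll4 on 188 to 363. Notch3 rested on 63 to 138, Jag2 on 42 to 92 and Dll1 on 7 to 28, and Hey1 and Heyl on at most 3 and 1. These counts assume the longest annotated transcript. Counting error limits the precision of the genes with few reads.

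Differences between treatments were tested with limma on log2(FPKM + 1), which understates the change of low genes, and a gene was called at a Benjamini-Hochberg adjusted p below 0.05. The test covered rows with at least 1 FPKM in at least 3 samples, and 5 of the 10 genes passed: Notch1, Notch2, Jag1, Dll4 and Hes1. Same-numbered samples deviated together, so each test is also given with the replicate number as a block. Without the block none of the 5 genes passed in any comparison. The shares of all rows called were 0.586% for E2 versus DMSO (66 of 11268), 0% for 4OHT versus DMSO (0 of 11277, with 290 at an unadjusted p under 0.05) and 0.328% for E2 versus 4OHT (37 of 11280). With the block 2 of the 5 were called in E2 versus DMSO, Notch1 lower and Hes1 higher, against 18.5% of all rows (12% higher and 6.44% lower). None was called in 4OHT versus DMSO (0.0621% of all rows, 7 rows) or in E2 versus 4OHT (21.4%). A count of 2 in 5 genes is too small to be read as above that share.

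**Figure D2:**
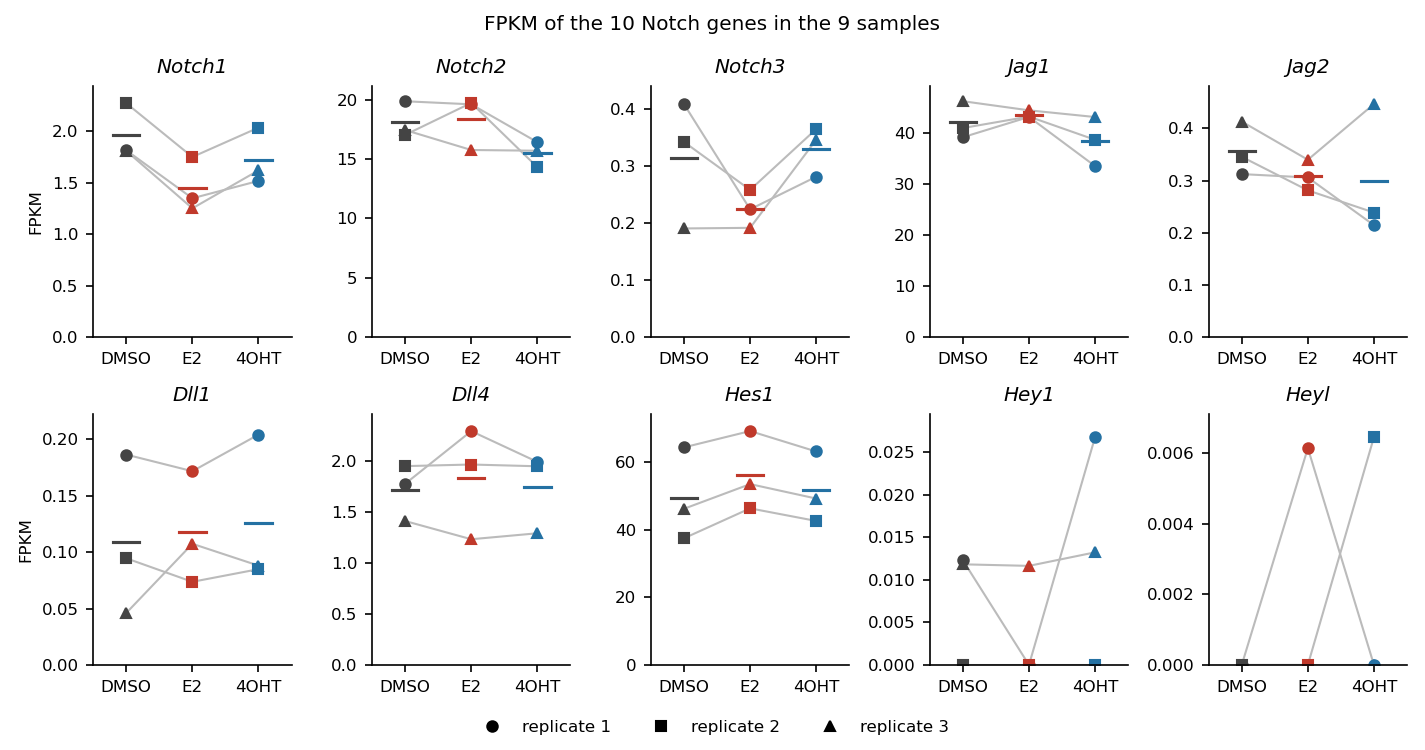
FPKM of each of the 10 Notch genes (vertical axis from 0) in DMSO, E2 and 4OHT, with grey lines joining samples of one replicate number and bars at group means, left out for Hey1 and Heyl, which have samples listed at 0. Notch1 is lower in E2 than in DMSO along all 3 lines, Hes1 is higher along all 3, and replicate 1 is the highest Hes1 sample in each treatment.

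Notch1, the receptor first linked to leukemia and broadly expressed in epithelia, had 1.82, 2.27 and 1.81 FPKM in DMSO replicates 1 to 3. It had 1.35, 1.75 and 1.25 in E2 and 1.52, 2.04 and 1.62 in 4OHT. All 3 E2 values lay below all 3 DMSO values, and the 4OHT values overlapped both groups. The means were 1.97 ± 0.266 FPKM in DMSO, 1.45 ± 0.264 in E2 and 1.73 ± 0.274 in 4OHT (SD, n = 3). E2 was below DMSO by 25.7%, 23.0% and 30.8% within replicates 1, 2 and 3. The fitted difference in log2(FPKM + 1) was -0.28 (SE 0.114), with an adjusted p of 0.425 in limma without the block, and it was lower in 3 of 3 replicates. With the block the SE was 0.0546 and the adjusted p was 0.0115. That call was lost (adjusted p in limma from 0.0531 to 0.122) without DMSO replicate 2, DMSO replicate 3 or E2 replicate 3, and without any one replicate number. The difference kept its sign in each of these fits, between -0.29 and -0.25.

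4OHT was below DMSO for Notch1 by 16.4%, 10.4% and 10.5% in the 3 replicates, a difference of -0.12 in log2(FPKM + 1) that did not pass (adjusted p 1.00 without and 0.367 with the block, limma). E2 was below 4OHT by 11.1%, 14.0% and 22.8%, a difference of -0.15 (adjusted p 0.564, and 0.0780 with the block, limma). Over the 9 samples, treatment held 49.4% of the log2(FPKM + 1) spread of Notch1 and replicate number 48.9%.

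Notch2, the abundant receptor, had 19.9, 17.0 and 17.5 FPKM in DMSO, 19.6, 19.7 and 15.8 in E2, and 16.4, 14.3 and 15.7 in 4OHT. The 4OHT samples were all below the DMSO samples, and E2 overlapped both groups. E2 and DMSO differed by 0.01 in log2(FPKM + 1), with a 95% interval of -0.21 to 0.24, so that changes of that size remain possible. With the block the interval was -0.16 to 0.19. Under upper-quartile scaling the sign of this near-zero difference turned, to -0.01.

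4OHT lay below DMSO for Notch2 by 17.3%, 16.0% and 10.0%, a difference of -0.21 (SE 0.0990) that did not pass the test (adjusted p 1.00 and, with the block, 0.325, limma). E2 lay above 4OHT by 19.4%, 37.8% and 0.392%, a difference of 0.23 (adjusted p 0.423, and 0.0612 with the block, limma). In the 12 fits with the block that left out a sample or a number the Notch2 difference ranged from 0.12 to 0.34 and the adjusted p from 0.0208 to 0.269 (limma). It was 0.13 (adjusted p 0.179, limma) without E2 replicate 2 and 0.12 (0.269) without replicate number 2, and it passed in 3 of these fits, without E2 replicate 3 (0.0208), 4OHT replicate 3 (0.0432) or replicate number 3 (0.0439).

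Notch3, a receptor best known from vascular smooth muscle, had 0.409, 0.343 and 0.191 FPKM in DMSO, 0.224, 0.259 and 0.192 in E2 and 0.282, 0.365 and 0.347 in 4OHT. The E2 samples were all below the 4OHT samples, and DMSO overlapped both. Below the level filter, Notch3 was tested only in the fit over all rows, where E2 differed from 4OHT by -0.12 (adjusted p 0.554, and 0.224 with the block, limma) and from DMSO by -0.10 (adjusted p 0.690, and 0.336 with the block). The smooth muscle genes Acta2 and Tagln were high in this line, at 932 to 1724 and 338 to 846 FPKM, while Myh11 was at or below 0.305.

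Jag1, the main ligand, had 39.1, 41.0 and 46.2 FPKM in DMSO, 43.1, 43.2 and 44.4 in E2 and 33.5, 38.6 and 43.1 in 4OHT. The E2 samples lay within a narrow band, 43.6 ± 0.727 FPKM (SD, n = 3), inside the DMSO range. The lowest E2 sample was just above the highest 4OHT sample. E2 differed from DMSO by 0.05 in log2(FPKM + 1) (95% interval -0.16 to 0.27, and -0.08 to 0.18 with the block). 4OHT was below DMSO by 14.4%, 5.64% and 6.71%, a difference of -0.13 (adjusted p 1.00, and 0.360 with the block, limma). E2 was above 4OHT by 28.7%, 11.8% and 3.04%, a difference of 0.18 (SE 0.0942), with an adjusted p of 0.465 without and 0.0512 with the block (limma). With the block the Jag1 difference was 0.12 without 4OHT replicate 1 or E2 replicate 1 (adjusted p 0.202 and 0.142, limma) and 0.0995 without replicate number 1 (0.258), and with no level filter the adjusted p was 0.106. It passed with upper-quartile scaling added to the block (0.0398) and, of the 12 fits that left out a sample or a number, in the one without E2 replicate 3 (0.0290).

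Dll4, a ligand best known from endothelial tip cells, had 1.78, 1.95 and 1.41 FPKM in DMSO, 2.30, 1.97 and 1.23 in E2 and 1.99, 1.95 and 1.29 in 4OHT. The 3 groups overlapped throughout, and replicate 3 was the lowest in each. Replicate number held 88.1% of its spread and treatment 1.20%. The fitted differences were 0.05 for E2 versus DMSO, 0.01 for 4OHT versus DMSO and 0.04 for E2 versus 4OHT, and with the block the first had a 95% interval of -0.12 to 0.22.

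Jag2, a second Serrate-type ligand, had 0.313, 0.346 and 0.413 FPKM in DMSO, 0.306, 0.281 and 0.340 in E2 and 0.215, 0.239 and 0.447 in 4OHT. E2 was below DMSO within each number, by 2.09%, 18.6% and 17.7%, and the groups overlapped. Dll1, the Delta-type ligand of somite formation, had 0.187, 0.0946 and 0.0461 FPKM in DMSO, 0.172, 0.0737 and 0.107 in E2 and 0.204, 0.0849 and 0.0881 in 4OHT. Replicate 1 was the highest Dll1 sample in each treatment. In the fit over all rows neither ligand passed in any comparison, with adjusted p from 0.847 to 1.00 without the block and from 0.522 to 0.884 with it (limma).

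Hes1, a repressor of the bHLH family and the usual readout of Notch activity, was the only one of the 3 targets with a measurable level. It had 64.3, 37.4 and 46.1 FPKM in DMSO, 69.1, 46.3 and 53.4 in E2 and 63.1, 42.5 and 49.2 in 4OHT. The groups overlapped, and replicate 1 exceeded replicates 2 and 3 in each treatment. Within replicates 1, 2 and 3, E2 was above DMSO by 7.49%, 23.6% and 15.8%. The means were 49.3 ± 13.7 FPKM in DMSO and 56.3 ± 11.7 in E2 (SD, n = 3).

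The fitted difference of Hes1 was 0.20 in log2(FPKM + 1) and was higher in 3 of 3 replicates. Without the block its SE was 0.224 and the adjusted p 0.764, and with it 0.0451 and 0.0191 (limma). Replicate number held 88.9% of the spread, treatment 9.13% and the remainder 1.99%. The call with the block was lost (adjusted p in limma from 0.0554 to 0.154) without DMSO replicate 2 or 3, E2 replicate 2 or 3, or replicate number 2 or 3. The difference stayed between 0.15 and 0.25 in the 12 fits with the block that left out a sample or a number.

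4OHT and DMSO did not differ in one direction for Hes1, with -1.90%, 13.6% and 6.53% within the 3 replicates and a difference of 0.08 (95% interval -0.43 to 0.59, and -0.02 to 0.18 with the block). E2 was above 4OHT by 9.57%, 8.75% and 8.68%, a difference of 0.12 (adjusted p 0.838, and 0.0864 with the block, limma).

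Hey1 and Heyl, the other targets, were near the detection limit. Hey1 was listed at 0.0123, 0 and 0.0118 FPKM in DMSO, at 0, 0 and 0.0117 in E2 and at 0.0268, 0 and 0.0132 in 4OHT, where each value above 0 is about 1 or 2 reads. Heyl was listed at 0 in 7 of 9 samples, with 0.00614 FPKM in E2 replicate 1 and 0.00645 in 4OHT replicate 2, each 1 step. No difference between treatments was detectable at this depth. The files also hold exact zeros in genes that are otherwise well expressed, 884 values in 266 rows, which were set apart as missing. None of the 10 Notch genes had such a value.

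Counted over replicates, E2 and DMSO differed in one direction in all 3 replicates for 2 of the 5 tested genes (Notch1 and Hes1), against 53% of 11094 rows with no 0. For 4OHT versus DMSO the count was 3 of 5, all lower (Notch1, Notch2 and Jag1). Of the 11094 rows, 3389 were higher and 1738 lower in all 3 replicates of that comparison, 46.2% in either direction. For E2 versus 4OHT the count was 4 of 5 (3 higher and 1 lower), against 55.9% in either direction. Groups did not overlap for Notch1 in E2 versus DMSO (15.3% of rows), for Notch2 in 4OHT versus DMSO (7.88%) and for Jag1 in E2 versus 4OHT (18.5%). The same 3 DMSO samples serve both comparisons with the solvent, and the same E2 samples serve both comparisons with E2.

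**Figure D3:**
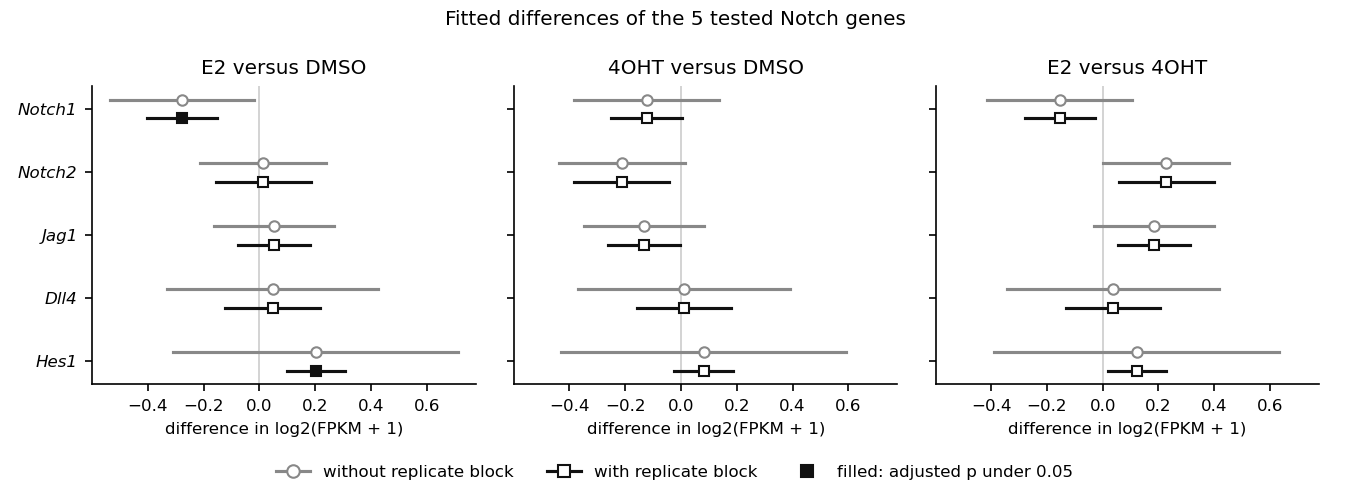
Differences in log2(FPKM + 1) of the 5 tested Notch genes in the 3 comparisons, with 95% intervals from limma without (grey circles) and with (black squares) the replicate block. The filled squares, Notch1 at -0.28 and Hes1 at 0.20 in E2 versus DMSO, have an adjusted p under 0.05, and the block narrows the Hes1 interval from between -0.31 and 0.71 to between 0.10 and 0.31.

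The rest of the pathway was described by 73 further genes in 12 roles, of which 54 passed the level filter. Without the block none was called in any comparison, and the smallest adjusted p was 0.231 for E2 versus DMSO (limma). With the block 11 were called in E2 versus DMSO (8 higher and 3 lower), which is 20.4% against 18.5% of all rows, none in 4OHT versus DMSO, and 14 in E2 versus 4OHT (7 higher and 7 lower), 25.9% against 21.4% (10.6% higher and 10.8% lower). These shares are near the background and say nothing particular to the pathway. Many single calls were lost when 1 sample or number was left out. Beside each gene named next stands how many of the 12 fits with the block lost its call. Each fit left out 1 of the 9 samples or 1 of the 3 replicate numbers. Such fits also called fewer of all rows. E2 versus DMSO gave 922 to 1846 without 1 sample and 629 to 1328 without 1 number, against 2082. E2 versus 4OHT gave 647 to 2346 and 838 to 966, against 2412. A lost call is therefore not by itself a mark of dependence on that sample. Over all rows the block called 1356 higher and 726 lower in E2 versus DMSO, and 1152 and 1332 when upper-quartile scaling was added. The median difference of the 54 genes was 0.01 in E2 versus DMSO and 0.03 in 4OHT versus DMSO, beside 0.00 and 0.02 over all rows.

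Among other receptors and ligands, Notch4 averaged 0.0271 FPKM and Dlk1 was listed at 0 in each sample. Dlk2, a Delta-like protein that is known to inhibit Notch, was the highest of the other ligands. It had 5.51, 3.84 and 3.00 FPKM in DMSO, 3.65, 2.18 and 2.41 in E2 and 5.51, 3.94 and 2.93 in 4OHT. Dlk2 was lower in E2 than in DMSO with the block by 0.44 on the log2(FPKM + 1) scale (-0.44, SE 0.0809, adjusted p 0.00888, limma, against 0.555 without it), and lower than in 4OHT by the same amount (adjusted p 0.00983). The Dlk2 call against DMSO was lost without DMSO replicate 2 or replicate numbers 1 or 2, and the call against 4OHT without 4OHT replicate 1 or 2 or replicate numbers 1 or 2.

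The ligand ubiquitin ligases drive ligand endocytosis, and ranged from Neurl1a at 0.933 to Mib1 at 15.4 FPKM. With the block, Neurl1b was lower in E2 than in 4OHT (-0.23, adjusted p 0.0375, limma). Its values were 1.57, 2.07 and 1.38 in E2 and 1.99, 2.80 and 1.66 in 4OHT. The Neurl1b call was lost in 10 of the 12 fits (adjusted p up to 0.209, limma), all but those without DMSO replicate 1 or E2 replicate 3, and with no filter (0.0665).

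Of the fringe and O-glycosylation genes Lfng was the highest, at 47.8 FPKM, and Mfng the lowest, at 0.0732. Lfng exceeded Rfng by 4.49 to 6.15 times in each sample, and none of the 4 tested genes of this role was called. The proteases of the first cut, Adam10 at 37.7 and Adam17 at 12.5 FPKM, and the convertase Furin at 44.9 were not called either.

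The gamma-secretase subunits ranged from Aph1c at 0.289 FPKM to Psenen at 72.5. Ncstn, the subunit that receives the substrate, had 31.1, 27.3 and 29.7 FPKM in DMSO, 34.6, 32.0 and 33.5 in E2 and 31.1, 28.3 and 30.7 in 4OHT. All 3 E2 samples exceeded all DMSO and 4OHT samples. With the block Ncstn was higher in E2 than in DMSO by 0.18 (SE 0.0332, adjusted p 0.00876, limma) and than in 4OHT by 0.15 (adjusted p 0.0192). Without the block the adjusted p was 0.354 and 0.423. Of the 12 fits, 4 lost the Ncstn call against DMSO (without DMSO replicate 2 or 3 or replicate numbers 2 or 3) and 6 the call against 4OHT (without 4OHT replicate 1 or 2, E2 replicate 2 or any one number).

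In the nuclear complex Snw1 had the highest mean, 28.1 FPKM, and Maml3 the lowest, 0.327. Rbpj, named here after its values were seen, averaged 27.4 FPKM and was not called. Maml2, a Mastermind coactivator, had 3.71, 2.97 and 2.95 FPKM in DMSO, 5.28, 4.75 and 4.11 in E2 and 3.98, 2.99 and 2.96 in 4OHT. E2 exceeded DMSO by 42.3%, 60.1% and 39.4% within replicates, and the groups did not overlap. The difference was 0.44 (SE 0.0537 with the block, adjusted p 0.00145, limma, against 0.231 without it), and 0.41 against 4OHT (adjusted p 0.00245 with the block). The Maml2 call against DMSO was kept in each of the 12 fits, with adjusted p from 0.00282 to 0.0240 (limma). The call against 4OHT was also kept in each, with adjusted p from 0.00435 to 0.0299 (limma).

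The acetyltransferases Kat2a and Kat2b of the same complex differed in opposite directions. Kat2a had 24.1, 30.2 and 27.7 FPKM in DMSO and 22.1, 25.2 and 23.3 in E2, with a difference of -0.21 (adjusted p 0.0178 with the block, 0.523 without, limma). Of the 12 fits, 6 lost the Kat2a call against DMSO, those without DMSO or E2 replicate 2 or 3 or without replicate number 2 or 3. Kat2a was also called lower in E2 than in 4OHT with the block, a call lost in 4 of the 12 fits. Kat2b had 21.7 and 18.5 FPKM in DMSO replicates 1 and 2, 26.1, 23.3 and 25.8 in E2 and 22.1 and 19.9 in 4OHT replicates 1 and 2. DMSO and 4OHT replicate 3 were listed at 0 for Kat2b and were set apart, so that these groups rest on 2 samples. Its difference between E2 and DMSO was 0.29 (adjusted p 0.0117 with the block, 0.319 without, limma), and with the zeros kept the adjusted p with the block was 0.265. Its call against DMSO was kept in the 8 fits that could be made for Kat2b with a sample or number left out. Kat2b was also called higher in E2 than in 4OHT with the block. That call was lost in 3 of the 8 fits, and with the zeros kept (adjusted p 0.249, limma). Snw1 was lower in E2 than in 4OHT by 0.13 (-0.13, adjusted p 0.0402 with the block, limma), with 28.7, 26.0 and 25.3 FPKM against 30.7, 29.7 and 27.2. In DMSO it had 29.7, 28.9 and 26.6. The Snw1 call was lost in 11 of the 12 fits (adjusted p up to 0.190, limma), all but the one without E2 replicate 1, and without a variance trend (0.0539).

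Of the genes listed under the role of corepressors, Aes was the highest, at 425 FPKM, and Rbpjl the lowest, at 0.0401. Tle2, a Groucho-type corepressor, was the one called, higher in E2 than in 4OHT by 0.42 (adjusted p 0.0386 with the block, limma). It had 8.36, 4.41 and 4.81 FPKM in DMSO, 6.81, 5.54 and 4.93 in E2 and 5.90, 2.70 and 3.92 in 4OHT. In the 12 fits the Tle2 difference ranged from 0.22 without replicate number 2 to 0.55 without E2 replicate 1, and 8 of them lost the call (adjusted p up to 0.145, limma). The call was also lost with no filter (0.107) and with zeros kept (0.0725), and without E2 replicate 2 or 4OHT replicate 2 the difference was 0.26 or 0.29.

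Among genes of receptor turnover Dtx4 had the highest mean and Dtx1 the lowest. Dtx4 was listed at 0 in E2 replicate 2 and 4OHT replicate 3 and stood at 44.8 to 51.7 FPKM in the other 7 samples. Itch, a ubiquitin ligase that acts on Notch, had 22.0, 16.7 and 18.7 FPKM in DMSO, 28.0, 21.4 and 23.0 in E2 and 21.5, 17.7 and 19.7 in 4OHT. E2 exceeded DMSO by 27.1%, 27.7% and 22.9% within replicates, a difference of 0.32 (SE 0.0403, adjusted p 0.00176 with the block, 0.406 without, limma), and the call was kept in each of the 12 fits. Itch was also called higher in E2 than in 4OHT with the block. That call was kept in each of the 12 fits, with a difference between 0.23 and 0.31. Aak1, a kinase of Notch and Numb trafficking, was higher in E2 than in 4OHT by 0.16 (adjusted p 0.0390 with the block, limma), with 12.8, 11.4 and 11.0 FPKM against 10.9, 9.86 and 10.3. In DMSO it had 11.6, 9.95 and 11.0. The Aak1 call was lost in 10 of the 12 fits (adjusted p up to 0.185, limma), all but those without DMSO replicate 2 or E2 replicate 3, and with no filter (0.0754) or zeros kept (0.0519).

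Most of the other Hes and Hey genes were at or near 0, with Hes5 and Helt listed at 0 in each sample. Hey2, named here after its values were seen, averaged 0.397 FPKM (0.0547 to 0.776) and lay below the level filter. Hes6, which is known to oppose Hes1, was the highest at 20.2 FPKM. It had 20.1, 18.6 and 19.1 in DMSO and 22.3, 19.7 and 22.3 in E2, a difference of 0.15 (adjusted p 0.0359 with the block, 0.523 without, limma) whose call was lost in 11 of the 12 fits, all but the one without E2 replicate 2, with no filter (0.0524) and with upper-quartile scaling (0.0657). Nrarp, a feedback inhibitor induced by Notch, was lower in E2 than in 4OHT by 0.29 (-0.29, adjusted p 0.0380 with the block, limma), with 0.606, 0.949 and 1.01 FPKM against 0.756, 1.63 and 1.48. In DMSO it had 0.628, 1.49 and 1.39, above E2 and below 4OHT within each replicate number. Nrarp was not called in either comparison with DMSO. The Nrarp call was lost in 9 of the 12 fits, all but those without DMSO replicate 1, E2 replicate 1 or replicate number 1, and with no filter (0.0588) or zeros kept (0.0514).

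The Id and Bhlhe genes encode helix-loop-helix partners and repressors that are not Notch targets by definition. They ranged from Bhlhe41 at 11.5 FPKM to Id2 at 197. Id4 was higher in E2 than in DMSO by 0.50 (SE 0.0711, adjusted p 0.00273 with the block, 0.713 without, limma). Its values were 34.7, 12.9 and 14.7 FPKM in DMSO, 42.5, 22.0 and 21.2 in E2 and 34.4, 14.5 and 15.3 in 4OHT, with replicate 1 the highest throughout, as for Hes1. Id1, with 160, 117 and 131 FPKM in DMSO and 184, 140 and 152 in E2, was higher in E2 by 0.22 (adjusted p 0.00750 with the block, limma). Bhlhe40 was higher by 0.15 (adjusted p 0.0262) and Bhlhe41 lower by 0.18 (-0.18, adjusted p 0.0271), and each of these 2 calls was lost in 8 of the 12 fits (adjusted p up to 0.165 and 0.144, limma). The Bhlhe40 call was kept without 4OHT replicate 2 or 3, DMSO replicate 3 or E2 replicate 2, and the Bhlhe41 call without any one 4OHT sample or DMSO replicate 1, but not with no filter (0.0558). The Id4 call against DMSO was kept in all 12 fits, and the Id1 call in all but the one without replicate number 3 (0.0814). Against 4OHT, E2 was also called lower for Bhlhe41 and higher for Id4 with the block. That Bhlhe41 call was kept in all 12 fits, with a difference between -0.32 and -0.24. That Id4 call was lost in 1 of the 12 fits, with a difference between 0.35 and 0.53. Id3 was lower in E2 than in 4OHT by 0.19 (-0.19, adjusted p 0.0180 with the block, limma), a call lost in 7 of the 12 fits and kept without any one DMSO sample, 4OHT replicate 3 or E2 replicate 2. It had 122, 85.6 and 96.1 FPKM in DMSO, 116, 84.1 and 86.0 in E2 and 138, 93.2 and 96.9 in 4OHT.

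**Figure D4:**
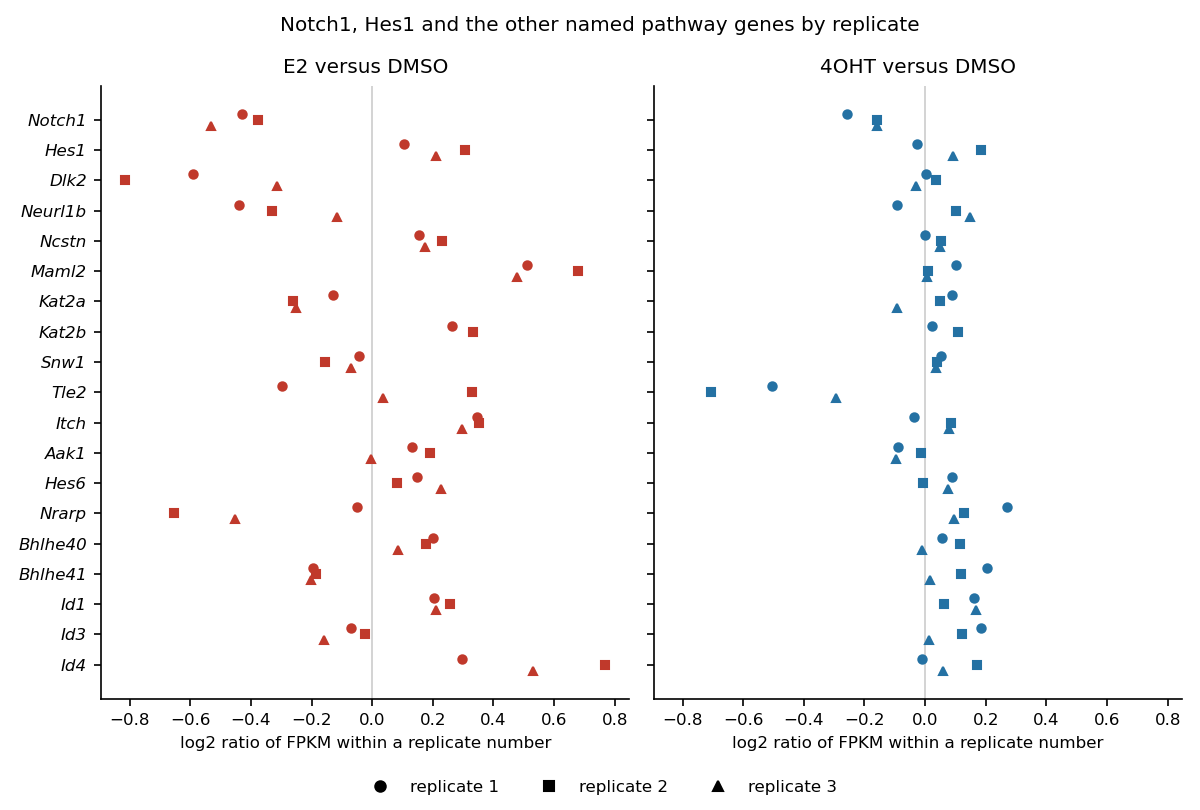
Log2 ratios of FPKM within each replicate number, E2 to DMSO (left) and 4OHT to DMSO (right), for Notch1, Hes1 and the 17 other pathway genes called in any comparison with the replicate block. The 3 symbols are the replicate numbers, and Kat2b has 2 because replicate 3 is listed at 0 in DMSO and 4OHT. The genes were chosen by the fit on these samples, so the distance from 0 is a description.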

How the data were processed

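RNA from 9 samples (3 each of DMSO, E2 and 4OHT) was sequenced. The authors aligned the reads to mm10 with TopHat2 2.0.8b and computed FPKM for known genes of a UCSC annotation with the Cufflinks suite (Cuffdiff 2.1.1 per the labels), and the deposited values are FPKM, 23332 rows per sample. Whether a further scaling between libraries entered them is not given in the sources used here. FPKM are not counts, so no count test was run.

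Groups and replicate numbers came from the labels. Rows reaching 1 FPKM in 3 or more samples (11339) were fitted as log2(FPKM + 1) with limma 3.58.1 in R 4.3.3, all 9 samples in one model with a variance trend and Benjamini-Hochberg adjustment within each comparison. Zeros in rows whose nonzero median was at least 5 FPKM were missing values, and a comparison needed 2 values in each group. Genes below the filter were read from the fit over all rows. Same-numbered samples deviated together, with correlations of 0.454 to 0.801 over the 9 pairs and 11122 rows, so the replicate number pairs the samples and its block is given beside the main fit.

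The members, lists and tests were chosen with earlier results of these data known. The text names the 10 members, the pathway genes called in any comparison in either fit, and the highest and lowest gene of each role. Depth was estimated from the FPKM steps of 290 low single-transcript rows, with a tolerance of 8% around whole multiples (quartiles of the scale 35.6 and 47.3 M reads). Intervals and read numbers cover counting or sample error only. Positions came from GENCODE on GRCm38, the assembly of mm10. The scripts were tested on simulated data. The marker genes Dnah5, Dnah9 and Mcidas were not analysed here. Alternatives were another pseudocount, no filter, upper-quartile scaling, 6 samples only, the block, other treatments of zeros, no trend, a stricter threshold and left-out samples. Combinations with the block were added after seeing the data.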

Additional observations from a re-analysis of the deposited data

How the results depend on the processing

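The Notch genes gave no call without the replicate block under any alternative run, and leaving out each sample gave 0 in all 3 comparisons. With the block, a pairing by replicate number, E2 versus DMSO gave 2 called members in each of the 6 fits with all samples, and 0 to 2 with a sample or number left out. In E2 versus 4OHT 1 member was called with upper-quartile scaling (Jag1) or without a variance trend (Notch1) and 0 to 2 with samples left out, and in 4OHT versus DMSO none was. Over all rows, E2 versus DMSO called 66, and 14 at an adjusted p under 0.01, 37 without the filter, 14 with only the 6 samples compared, and 13 to 87 with 1 sample left out. The block gave 2082, and 1606 without the filter, 2074 with a pseudocount of 0.1, 2484 with upper-quartile scaling, 1702 with zeros kept, 1929 without the trend and 629 to 1846 with samples left out. E2 versus 4OHT called 37, and 3, 9 and 13 under the same first 3 alternatives, 18 with zeros kept and 0 to 56 with 1 sample left out. The block gave 2412, and then 1563, 2398, 2631, 1840 and 2177 in the same order, and 647 to 2346 with samples left out. 4OHT versus DMSO called 0, 7 with the block, 4 with the block and a pseudocount of 0.1, and 0 to 10 with samples left out. The pathway list gave 11, 9, 11, 11, 10 and 12 with the block in E2 versus DMSO (alone, no filter, pseudocount, upper-quartile scaling, zeros kept, no trend) and 14, 12, 14, 17, 10 and 13 in E2 versus 4OHT, and 4 to 10 and 4 to 13 with samples left out (0 without the block). Signs turned for Dll4, Notch2, Jag1 and Hes1, each in comparisons in which that gene itself was not called. Upper-quartile scaling gave -0.012 for Dll4 in 4OHT versus DMSO and -0.011 for Notch2 in E2 versus DMSO, with and without the block. With samples left out, the ranges were -0.071 to 0.14, -0.088 to 0.20 and -0.071 to 0.21 for Dll4 in 4OHT versus DMSO, E2 versus 4OHT and E2 versus DMSO, -0.084 to 0.12 for Notch2 and -0.012 to 0.12 for Jag1 in E2 versus DMSO, and -0.096 to 0.29 and -0.034 to 0.27 for Hes1 in 4OHT versus DMSO and E2 versus 4OHT. The causes were not tested. Counting error limits Notch3, Jag2 and Dll1, and Hey1 and Heyl could not be compared at this depth.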
